A study of Solanum lycopersicum with 28 samples.

Results

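Acetylation of histone H4 was described from the 5 peak lists labelled H4K5ac, H4K8ac, H4K12ac, H4K16ac and H4K20ac. H4K5ac stands for histone H4 acetylated at lysine 5, and the other names are read in the same way. The members were chosen by their label alone, and every peak on chromosomes 1 to 12 was kept. These were 326184 of the 3381748 peaks that all 28 lists of the series place on those chromosomes. H4K5ac gave 47730 peaks, H4K8ac 73094, H4K12ac 62700, H4K16ac 74482 and H4K20ac 68178.

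The lists came from chromatin immunoprecipitation followed by sequencing (ChIP-seq), in which an antibody recovers the DNA wrapped on histones that carry a modification. Leaves were taken from wild-type tomato plants (Solanum lycopersicum) of cultivar M82, aged 4 weeks, untreated, and kept at 24 °C under long days of 16 h of light. All 28 lists, of 26 histone modifications, RNA polymerase II (Pol2) and Input chromatin that saw no antibody, share this genotype, tissue and age. Each target has 1 library in the labels, so no difference between 2 targets has a replicate check.

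The amino-terminal tail of histone H4 leaves the nucleosome and carries lysines 5, 8, 12 and 16, with lysine 20 where the tail meets the folded core. Acetyltransferases add acetyl groups and deacetylases remove them, and an acetyl group takes away the positive charge with which a lysine binds DNA. Acetylation of lysine 16 is known from work in vitro to hinder the folding of nucleosome arrays, acetylation of lysines 5 and 12 marks newly made H4 before it is deposited on DNA, and proteins with bromodomains bind acetylated H4 tails. Lysine 20 is better known as a methylated residue.

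The labels give the antibodies by catalogue number, 39700 for H4K5ac, 61104 for H4K8ac, 39930 for H4K16ac, and 61531 for both H4K12ac and H4K20ac. Whether 1 reagent served the last pair cannot be told apart from a slip in the labels. H4K5ac is the only list of the 5 in the broad format, in which the peak caller joins neighbouring enriched stretches, and the other 4 are in the narrow format. No read totals come with the lists, so the depth is unknown. A pileup of reads can be solved from the fold enrichment and the p-value of a peak. The lowest backgrounds solved in this way (first percentile) were 3.02 reads for H4K5ac, 7.98 for H4K8ac, 6.08 for H4K12ac, 8.02 for H4K16ac and 4.25 for H4K20ac. A whole-number pileup was found for nearly all peaks of the narrow lists but for 43.6% of the H4K5ac peaks. The H4K5ac background is therefore not on the scale of the others. The tissue was not checked against marker genes, since no gene annotation of this genome build was used.

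The 5 lists differed in size, width and height. H4K5ac covered 8.62% of the bases of the 12 chromosomes, H4K8ac 6.61%, H4K12ac 5.26%, H4K16ac 6.53% and H4K20ac 4.94%, and the Input list covered 5.96%. The median peak was 1102 bp wide for H4K5ac, 614 bp for H4K8ac, 574 bp for H4K12ac, 553 bp for H4K16ac and 439 bp for H4K20ac. The median fold enrichment over the local background ran in another order, from 2.15 for H4K5ac and 2.25 for H4K16ac through 2.48 for H4K8ac and 2.66 for H4K12ac to 2.88 for H4K20ac. H4K20ac thus had the narrowest peaks of the 5 and the tallest of the 4 narrow lists. In the broad format the fold is an average over the peak, so that of H4K5ac is not on the scale of the others. A q-value under 0.05 was reached by 51.1% of the H4K5ac peaks, 93.5% of the H4K8ac peaks, 88.8% of the H4K12ac peaks, 90.5% of the H4K16ac peaks and 90% of the H4K20ac peaks, against 1.80% of the peaks of the Input. The q-value of a broad peak is such an average too. The narrowest peak, which MACS2 ties to the fragment length it estimates, was 147 bp in H4K20ac and 194 to 217 bp in the other narrow lists.

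The first question of the comparison was how much chromatin the 5 acetylations hold in common. Together the lists covered 91.6 Mb, or 11.4% of the 12 chromosomes. Of these bases, 33.3% lay in 1 list, 16.3% in 2, 12.5% in 3, 12.9% in 4 and 24.9% in all 5. Bases in 1 list and bases in all 5 lists were thus the most common classes, and those in 3 lists the least. Chromosomes differed little in this respect. The share in all 5 lists ran from 23.6% on chromosome 12 to 26.5% on chromosome 2, and the share in 1 list from 32.7% on chromosome 10 to 34.1% on chromosome 9.

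**Figure D1:**
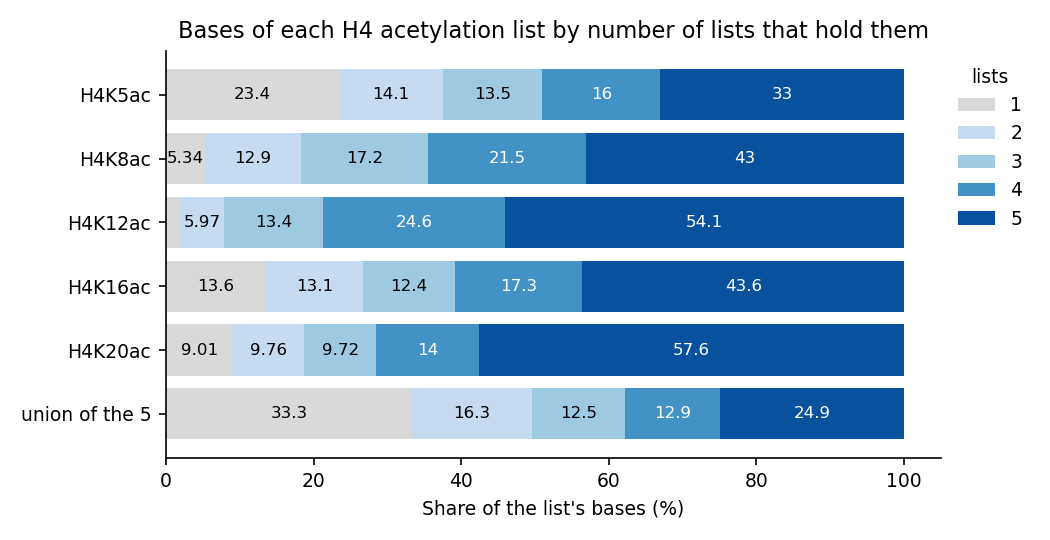
Each bar splits the bases of 1 H4 acetylation list, or of the union of the 5, by the number of the 5 lists that hold them (x axis, percent of bases; 1 library per list). H4K20ac and H4K12ac have most of their bases in all 5 lists (57.6% and 54.1%), and H4K5ac has the most bases held by no other list (23.4%).

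Each list looked different from its own side, as the plot of bases by number of lists shows. H4K12ac had 54.1% of its bases in all 5 lists and 1.96% in no other, so that nearly all H4K12ac bases also lay in peaks of another H4 list. H4K20ac had an even larger part in all 5 lists, 57.6%, but also 9.01% of its own. H4K8ac had 43.0% in all 5 lists and H4K16ac 43.6%, and they parted in the bases held by no other list, 5.34% for H4K8ac and 13.6% for H4K16ac. H4K5ac had 33.0% of its bases in all 5 lists and 23.4% to itself.

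Among the 31 possible combinations, all 5 lists together ranked first with 22.8 Mb. H4K5ac alone followed with 16.2 Mb, H4K16ac alone with 7.12 Mb, the combination of all but H4K20ac with 6.33 Mb and H4K20ac alone with 3.57 Mb. H4K12ac alone held 0.826 Mb. The bases only in H4K12ac and H4K20ac, whose antibodies share a catalogue number, came to 0.179 Mb and were the fewest of the 10 combinations of a pair of lists. These 2 lists also covered the fewest bases of the 5 (5.26% and 4.94% of the chromosomes), and whether 1 reagent served both was not tested.

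Most of the H4K5ac-only bases were edges and gaps. Of the 16.2 Mb, 88.2% belonged to H4K5ac peaks that touched another H4 list, and 11.8% to peaks that touched none. Gaps between narrow peaks that 1 H4K5ac peak bridged held 41.7% of them, in 21857 gaps with a median of 227 bp. A single H4K5ac peak often spanned several narrow ones, and 25.1% of the H4K5ac peaks held 2 or more centres of H4K8ac peaks and 22.6% those of H4K20ac peaks. Centres of all 4 narrow lists lay in 65.5% of the H4K5ac peaks. The format and the antibody of H4K5ac cannot be told apart as sources of these bases.

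Merged across the 5 lists, the peaks formed 73811 separate sites, of which 33211 (44.99%) were touched by all 5 lists and 22149 (30.01%) by 1. The sites touched by all 5 lists held 72.0% of the bases of the union and had a median width of 1699 bp, against 277 bp for sites of 1 list. Enrichment was higher at the sites of all 5 lists than at sites of 1 list in each of them, and in H4K5ac it was 1.68 at sites of 1 and of 2 lists alike. The median of the highest fold per site was 2.10 for H4K20ac at the 5838 sites that it alone touched and 5.02 at the sites touched by all 5. The same medians were 1.96 and 4.49 for H4K12ac, 1.78 and 4.27 for H4K8ac, 1.84 and 3.33 for H4K16ac, and 1.68 and 2.72 for H4K5ac. Over the 33211 common sites the fold of 1 list followed that of another. Spearman's rho, given as a description since all sites come from the same 5 libraries, was highest for H4K8ac with H4K12ac (0.940) and lowest for H4K16ac with H4K20ac (0.799).

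The tallest peaks were at common sites. The H4K20ac list peaked at a fold of 23.3, on chromosome 6 from 44235912 to 44236506 (M82 genome version 1, as are all positions given here). Over the same 595 bp the best folds were 11.1 for H4K5ac, 17.1 for H4K8ac, 18.2 for H4K12ac and 14.3 for H4K16ac, and H3K27me3 covered 100% of it together with Pol2. The H4K12ac list peaked at 21.4, on chromosome 5 from 13057862 to 13058257, where H4K8ac reached 16.4 and H4K20ac 19.6. The tallest H4K8ac peak (fold 20.2) was on chromosome 1 from 85546610 to 85547215, and there H4K12ac was higher still in its own list, at 20.8. The tallest H4K16ac peak (17.8) was on chromosome 8 from 52000082 to 52000931, and the tallest H4K5ac peak (11.7) on chromosome 6 from 49728041 to 49728497. Each of these 5 peaks was covered to at least 77.2% by each of the other 4 lists, and to at least 81.1% by H3K4me3, a mark found at the start of transcribed genes. The Input list also covered them well above its 5.96% of all bases, from 37.9% (tallest H4K5ac peak) to 67.1% (tallest H4K20ac peak). Its part in their height was not tested.

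Stretches held without a break by all 5 lists numbered 43460, with a median of 474 bp. The 3 longest were 3313 bp on chromosome 8 (65201292 to 65204604), 2749 bp on chromosome 4 (5025957 to 5028705) and 2709 bp on chromosome 6 (50526405 to 50529113). In the longest, the folds were 2.48 for H4K5ac, 4.02 for H4K8ac, 5.09 for H4K12ac, 3.66 for H4K16ac and 3.89 for H4K20ac. All 3 were covered to at least 92.9% by Pol2 and at least 96.2% by H3K4me3. Away from the centre of a stretch the lists fell off at different rates. At 500 bp from the centre H4K5ac covered 61.8% of the stretches, H4K8ac 49.7%, H4K16ac 47.3%, H4K12ac 41.3% and H4K20ac 36.2%. The span covered in at least 50% of the stretches was 1300 bp for H4K5ac, 900 bp for H4K8ac and H4K16ac, 800 bp for H4K12ac and 700 bp for H4K20ac. H4K5ac is the broad list, and the narrowest peak was 147 bp in H4K20ac against 194 to 217 bp in the other narrow lists. The part of format and smallest peak width in these spans was not tested. All of these stretches are centred on bases that the 5 lists share, so the high cover at the centre itself is fixed by the choice.

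The second question was which acetylations lie closest together. As the measure, the bases shared by a pair of lists were divided by the bases in either (the Jaccard index, which is 1 for identical lists). H4K8ac and H4K12ac were the closest pair, at 0.641, with 88.2% of the H4K12ac bases inside H4K8ac peaks. H4K8ac with H4K16ac (0.568) and H4K5ac with H4K8ac (0.564) came next. The 3 lowest pairs were H4K5ac with H4K16ac (0.470), H4K16ac with H4K20ac (0.440) and H4K5ac with H4K20ac (0.420). The pair with 1 catalogue number, H4K12ac and H4K20ac, was the 5th of 10 at 0.520. Across chromosomes the index of H4K8ac with H4K12ac ran from 0.627 to 0.664 and that of H4K16ac with H4K20ac from 0.416 to 0.470, ranges that did not overlap. Among the narrow lists the median distance from the summit of 1 list to the nearest of the other was shortest for the same closest pair, 44 bp, and 61 to 74 bp for the rest. No pair shared more than 4 peaks with identical limits, so no list was a copy of another.

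**Figure D2:**
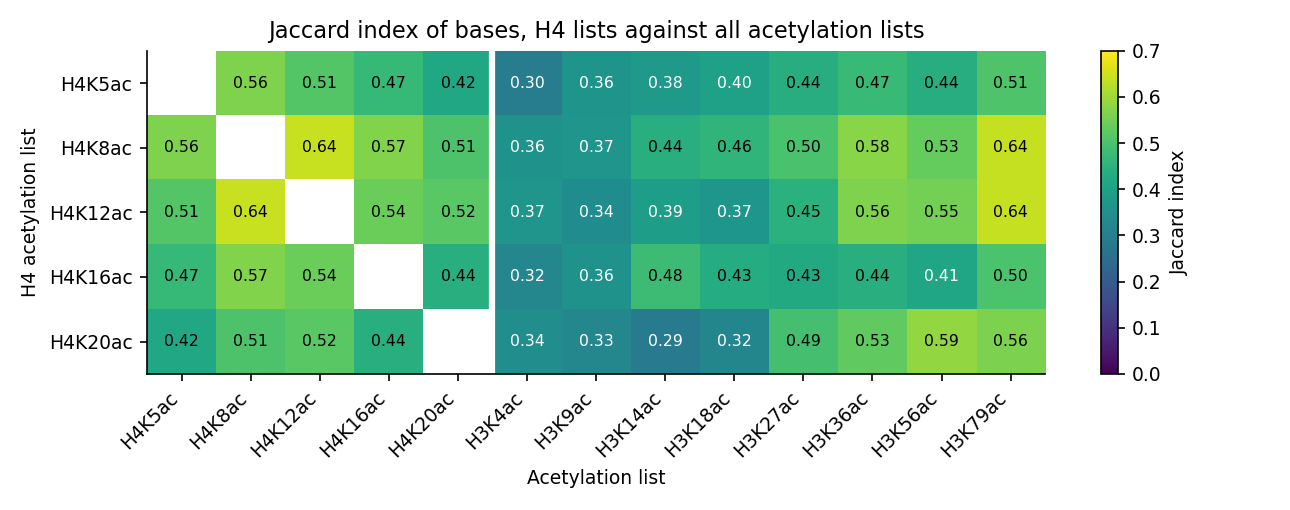
Colour and number give the Jaccard index of bases (shared over either, 0 to 1) of each H4 acetylation list (rows) with each of the 13 acetylation lists (columns, H4 to the left of the white line; 1 library each). H4K8ac and H4K12ac are the closest H4 pair (0.64), and the highest value of H4K20ac lies with an H3 list, H3K56ac (0.59).

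H3 acetylations could be as close as those of H4. For H4K20ac the closest 3 lists of the other 12 were H3K56ac (0.586), H3K79ac (0.561) and H3K36ac (0.530), each ahead of its best H4 partner, H4K12ac (0.520). H4K8ac was as near to H3K79ac (0.638) as to H4K12ac (0.641), and H4K12ac was at 0.640 with H3K79ac. H4K16ac had the highest index of the 5 with H3K14ac. The 10 H4 pairs had a mean index of 0.519 ± 0.0654 (SD), the 40 pairs of an H4 with an H3 acetylation 0.441 ± 0.0940, and the 28 H3 pairs 0.379 ± 0.117. The difference of 0.0773 between the first pair of means was not past the threshold in an exact permutation test of the list labels (two-sided p = 0.117, adjusted p = 0.479 over 7 tests, 5 against 8 lists, smallest possible p 0.00155).

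The third question was where 1 acetylation stood alone. A peak was called exclusive if it shared no base with the other 4 lists, which held for 22174 of the 326184 peaks (6.80%, 95% Wilson interval 6.71% to 6.88%, counting error only). H4K16ac had the most, 8800 or 11.8% of its peaks. H4K20ac followed with 5846 (8.57%), H4K5ac with 3160 (6.62%), H4K8ac with 3375 (4.62%) and H4K12ac with 993 (1.58%). No intervals of these shares overlapped, and on each chromosome H4K16ac lay between 10.9% and 12.8%, above the highest chromosome of any other list (9.41%, H4K20ac). The order depended on the rule and the filter. With the other lists extended by 1 kb, H4K5ac led with 3.67%, ahead of H4K16ac with 3.23%. Where up to 50% of a peak could be covered, 17.1% of the H4K16ac peaks and 16.3% of the H4K5ac peaks counted, and with q-values under 0.05 in all lists 14.6% and 0.217%. With a solved pileup above 36 and a fold above 1.5, exclusive peaks were 19.9% in H4K8ac, 14.9% in H4K16ac, 7.14% in H4K20ac and 0.525% in H4K12ac. In H4K5ac there were nearly none (0.0066%). This filter kept 66.6% of the H4K8ac peaks, 55.9% of H4K16ac, 42.9% of H4K20ac, 49.5% of H4K12ac and 31.7% of H4K5ac. Its uneven loss of peaks as a source of this order was not tested. Without the H4K5ac list, 10.9% of the peaks of the other 4 were exclusive, with 16.3% for H4K16ac, 13.3% for H4K20ac, 9.42% for H4K8ac and 3.56% for H4K12ac.

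Exclusive peaks were narrow and low. Their median widths were 506 bp for H4K5ac, 257 bp for H4K8ac, 237 bp for H4K12ac, 298 bp for H4K16ac and 217 bp for H4K20ac, against 1348, 916, 810, 852 and 701 bp for the peaks that touched all of the other 4 lists. A q-value under 0.05 was reached by 75.9% of the exclusive H4K16ac peaks, 76.5% of those of H4K20ac, 76.3% of those of H4K8ac and 48.0% of those of H4K12ac, below the share over the whole list in each case. Of the exclusive H4K5ac peaks, 46 (1.46%) did. The median distance to the nearest peak of another H4 list was 294 to 440 bp in the narrow lists and 1138 bp in H4K5ac, and 72.4% to 82.2% of the exclusive peaks of the narrow lists lay within 1 kb of one.

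The exclusive peaks of H4K16ac and H4K20ac kept opposite company, as the plot of exclusive peaks against the other targets shows. Of the bases in exclusive H4K16ac peaks, 48.6% lay in H3K14ac peaks and 3.27% in peaks of H3K4me2. For the exclusive H4K20ac peaks these shares were 4.98% and 57.0%. The H3K4me2 list is broad, and 39.8% of its peaks reached a q-value under 0.05. H3K14ac covered 6.92% and H3K4me2 10.7% of all bases of the chromosomes, so that each kind of exclusive peak held less than the genome-wide share of the mark in which the other was rich.

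**Figure D3:**
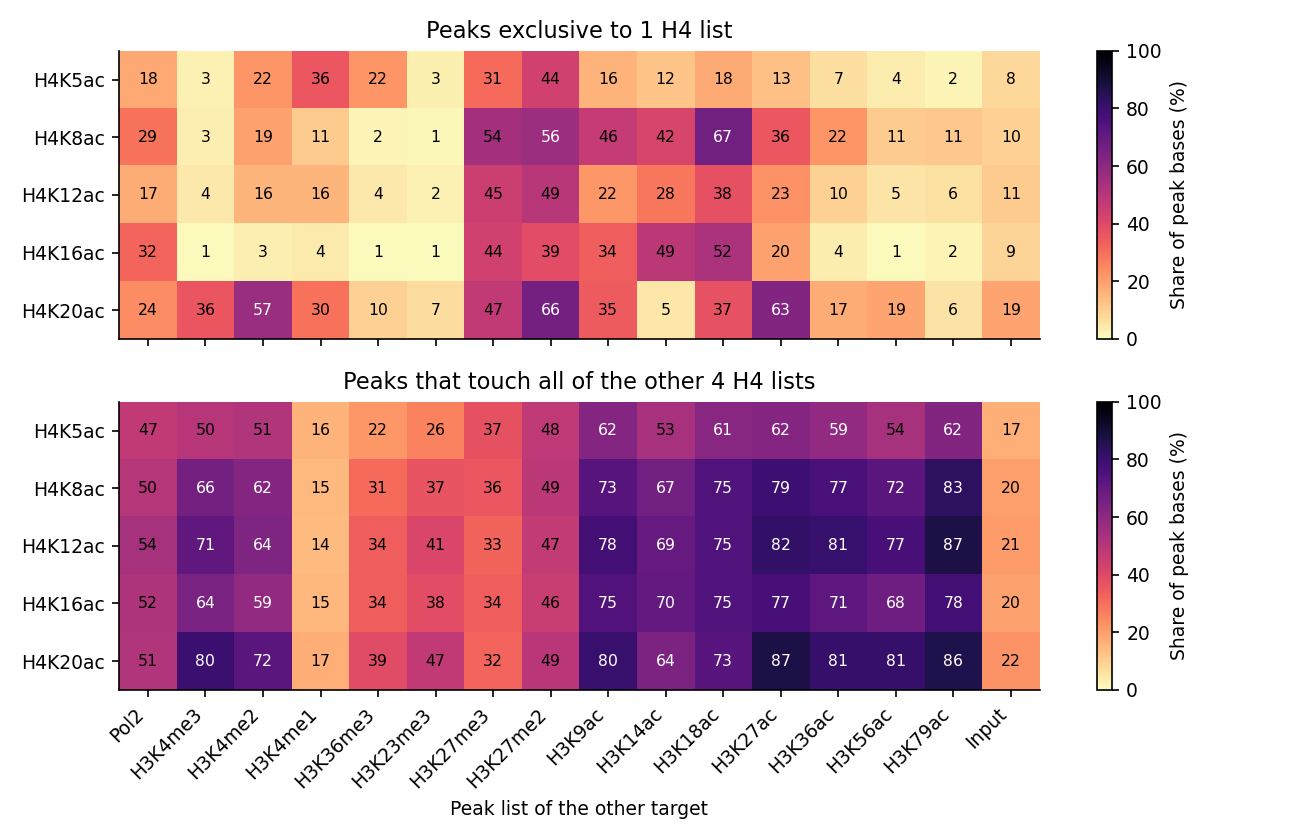
Colour and number give the percent of bases of exclusive peaks (top) and of peaks touching all of the other 4 H4 lists (bottom) that lie in the peaks of another target (columns), for each H4 list (rows). In the top panel H4K20ac is low for H3K14ac and high for H3K4me3, H3K4me2 and H3K27ac. H4K16ac is high for H3K14ac, low for H3K4me3 and H3K4me2, and at 19.9% for H3K27ac, against 7.60% of all bases. In the bottom panel H3K14ac covers 53.3% to 70.0% in each row and H3K4me3 49.7% (H4K5ac) to 80.0% (H4K20ac).

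Further marks differed between the exclusive peaks of H4K16ac and H4K20ac. H3K4me3 covered 0.832% of the exclusive H4K16ac bases and 35.96% of the exclusive H4K20ac bases. H3K27ac covered 19.9% and 62.5%, H3K56ac 1.00% and 18.8%, H3K36ac 3.56% and 17.2%, and H3K4me1 4.27% and 29.5%. H3K27me2, a mark of facultative heterochromatin, covered 38.6% and 66.0%, the first close to its 38.0% of all bases. Only 0.404% of the peaks of this broad list reached a q-value under 0.05, so its shares rest on weak peaks. Of all bases of the chromosomes, H3K4me3 covered 4.95%, H3K27ac 7.60%, H3K56ac 4.66%, H3K36ac 5.39%, H3K4me1 10.8%, H3K18ac 8.99% and Pol2 9.39%. In the other direction, H3K18ac covered 52.5% of the exclusive H4K16ac bases and 36.7% of those of H4K20ac, and Pol2 32.2% and 23.9%. Each of these 8 differences, and those of H3K14ac and H3K4me2, had the same sign on all 12 chromosomes. H3K9ac did not tell them apart (33.8% and 34.7%, higher in H4K16ac on 6 chromosomes and in H4K20ac on 6). H3K27me3, set by Polycomb complexes, was at 43.7% and 47.1%, higher in H4K16ac on 2 chromosomes and in H4K20ac on 10. Its list is broad, and 26.6% of its peaks reached a q-value under 0.05.

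By chromosome, the H3K14ac share ran from 45.4% to 51.4% in exclusive H4K16ac peaks and from 3.39% to 6.79% in those of H4K20ac. The H3K4me2 share ran from 2.14% to 4.92% and from 41.0% to 74.1%. The contrast was present in the terminal and in the central zones of the chromosomes (H3K14ac 44.7% and 4.56% at the ends, 52.4% and 6.26% in the centre). It was also present among exclusive peaks more than 1 kb from any other H4 list (52.0% of 2408 peaks' bases and 3.78% of 1212 peaks' bases). The Input list covered 8.68% of the exclusive H4K16ac bases and 18.9% of those of H4K20ac, and the part of this in the contrast was not tested. Chromosomes of 1 library are not replicates, and with 1 library per target no test between the 2 lists was possible.

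**Figure D4:**
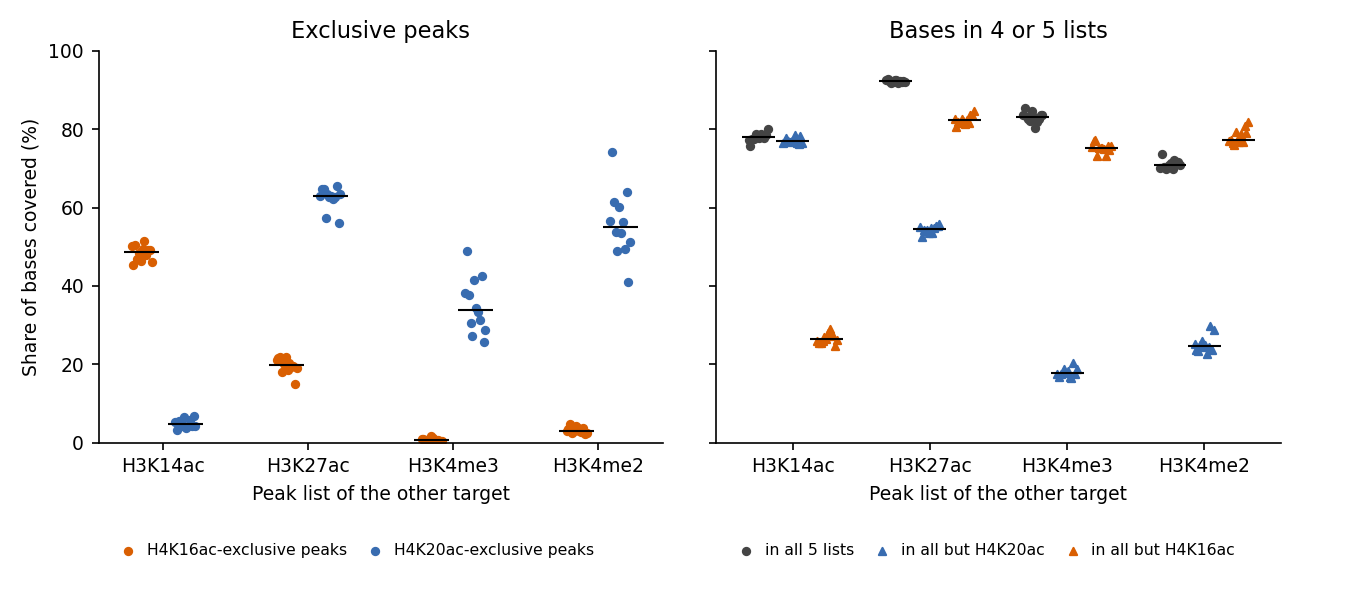
Each point is 1 of the 12 chromosomes and each black line their median; the y axis gives the percent of bases covered by the peaks of the target on the x axis. Left, exclusive peaks of H4K16ac and H4K20ac, with no overlap between them for any of the 4 targets; right, bases in all 5 H4 lists, in all but H4K20ac and in all but H4K16ac.

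In H3K4me3 the exclusive peaks of the other 3 lists were low like those of H4K16ac, from 2.66% (H4K5ac) to 4.37% (H4K12ac). Of the exclusive H4K8ac bases, 66.8% lay in H3K18ac, 53.9% in H3K27me3 and 41.7% in H3K14ac, with 3.17% in H3K4me3. The first 3 shares were 52.5%, 43.7% and 48.6% for exclusive H4K16ac bases. H3K4me2 differed more, with 19.3% for H4K8ac and 3.27% for H4K16ac. The exclusive H4K12ac bases resembled those of H4K8ac at lower shares, with 37.7% in H3K18ac and 28.5% in H3K14ac. The exclusive H4K5ac bases were 35.7% in H3K4me1, against 10.8% of all bases of the chromosomes, and 12.5% in H3K14ac. Their share in H3K36me3, a mark of the bodies of transcribed genes, was 22.1%, below the 23.7% of all bases. H3K36me3 is a broad list too, and 8.10% of its peaks reached a q-value under 0.05. No H3 acetylation list touched 31.7% of the exclusive H4K5ac peaks, against 3.17% of those of H4K8ac, 16.2% of those of H4K12ac, 9.30% of those of H4K16ac and 11.1% of those of H4K20ac. In peaks that touched all of the other 4 lists, by contrast, a median of 8 of the 8 H3 acetylations took part in each list.

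Bases in 4 of the 5 lists showed the same marks from the other side. The 6.33 Mb held by all but H4K20ac lay to 77.1% in H3K14ac and to 17.9% in H3K4me3. The 2.79 Mb held by all but H4K16ac lay to 26.5% in H3K14ac and to 75.3% in H3K4me3. In bases held by all 5 lists both were common, 77.9% for H3K14ac and 83.1% for H3K4me3. By chromosome, the H3K4me3 share was 16.6% to 20.4% in all but H4K20ac, 73.1% to 77.2% in all but H4K16ac and 80.4% to 85.5% in all 5. Pol2 covered 54.2% of the bases in all but H4K20ac, close to the 55.8% in all 5, and 31.97% of those in all but H4K16ac. H3K23me3 covered 2.79% of the bases in all but H4K20ac and 55.5% of those in all 5.

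Starting from H3K4me3 and H3K14ac gave the same order. This counts overlaps of the same lists from the other side, so it is not separate support. In the 17.8 Mb where both H3K4me3 and H3K14ac had peaks, each H4 list covered between 90.1% (H4K20ac) and 95.7% (H4K8ac) of the bases, and 1.08% had none of the 5. In the 21.9 Mb with H3K4me3 and no H3K14ac, H4K5ac covered 57.5%, H4K20ac 56.6%, H4K8ac 47.6%, H4K12ac 40.2% and H4K16ac 35.4%. In the 37.7 Mb with H3K14ac and no H3K4me3, H4K16ac led with 48.8%, ahead of H4K5ac with 46.1%, H4K8ac with 42.7% and H4K12ac with 29.2%, and H4K20ac covered 14.02%. H4K16ac was thus the lowest of the 5 in the H3K4me3-only bases and the highest in the H3K14ac-only bases, and H4K20ac was lowest in the latter. Over chromosomes H4K20ac covered 12.8% to 15.3% of the H3K14ac-only bases and H4K16ac 45.1% to 50.9%. With neither mark, the lists covered from 0.802% (H4K12ac) to 3.10% (H4K5ac) of 724.5 Mb.

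Single regions illustrate the split, though not in every mark. The tallest exclusive H4K20ac peak (fold 9.71) spanned chromosome 3 from 60247995 to 60248252, where H3K4me3 covered 95.3%, H3K79ac 100% and H3K14ac 0%. H3K4me2 covered 0% of it, against 57.0% of all exclusive H4K20ac bases, and H3K79ac covered 5.56% of all those bases. The tallest exclusive H4K16ac peak (fold 3.77) spanned chromosome 6 from 28497580 to 28498298, inside H3K14ac (100%) and with 0% in H3K27ac and H3K4me3. The longest stretch held by all but H4K20ac was 2193 bp on chromosome 9 (37535483 to 37537675), with 100% in H3K14ac and 0% in H3K4me3, and with folds of 4.20 for H4K8ac, 3.80 for H4K12ac, 4.42 for H4K16ac and 2.35 for H4K5ac. The longest held by all but H4K16ac was 1187 bp on chromosome 1 (67078821 to 67080007), with 0% in H3K14ac, 95.1% in H3K4me3 and 100% in H3K27me3, and with folds of 5.22 for H4K8ac, 3.39 for H4K12ac, 5.14 for H4K20ac and 2.28 for H4K5ac. The remaining longest stretches lacking 1 list were shorter, 785 bp without H4K5ac, 808 bp without H4K8ac and 1072 bp without H4K12ac.

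The marks beside a base differed with the number of H4 lists that held it, and not all in one direction. Number and kind of list are mixed here, since 16.2 Mb of the 30.6 Mb in 1 list were in H4K5ac, the broad list. Among bases in 1 list the H3K4me3 share ran from 6.66% (H4K16ac alone) to 49.9% (H4K20ac alone). From bases in 1 H4 list to bases in all 5, the share in H3K4me3 rose from 13.2% through 22.5%, 30.6% and 39.6% to 83.1%. The share in H3K79ac rose from 7.31% to 95.9%, that in H3K9ac from 33.4% to 87.1%, and that in H3K23me3 from 3.36% to 55.5%, the last with 9.94% in bases of 4 lists. The share in the Input also rose, from 10.1% to 23.6%, and its part in these increases was not tested. H3K36me3 stayed between 7.93% and 9.81% in bases of 1 to 4 lists and reached 43.8% in all 5, against 23.7% of all bases of the chromosomes. Pol2 was at 32.4%, 32.04%, 35.6%, 44.99% and 55.8%, and H3K4me1 went down from 20.7% to 11.5%. The share in H3K27me3 was 40.6%, 48.2%, 48.2%, 42.6% and 30.2% from 1 list to 5, against 10.2% of all bases of the chromosomes. H3K9me2, a mark of constitutive heterochromatin whose list covered 42.8% of the chromosomes, held at most 0.102% of the bases in any of the 5 classes. Of the 43460 stretches in all 5 lists, 6 touched an H3K9me2 peak and 6288 (14.5%) touched neither Pol2 nor H3K9ac, the longest of the latter being 2693 bp on chromosome 1 (58519244 to 58521936).

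No test set the H4 acetylations as a group apart from the 8 H3 acetylations by these marks. With 5 and 8 unlike lists, such tests can miss a difference. The share of a list's bases in Pol2 was 45.9% ± 2.65 (SD, n = 5 lists) for H4 and 43.0% ± 6.41 (n = 8) for H3 (exact permutation test, two-sided, p = 0.381). The share in H3K4me3 was 54.5% ± 11.7 and 48.6% ± 15.4 (exact p = 0.471), that in H3K27me3 38.0% ± 1.96 and 36.3% ± 5.87 (exact p = 0.558), and that in the Input 18.4% ± 2.33 and 17.3% ± 3.35 (exact p = 0.594). Within H4 the H3K4me3 share ran from 42.4% in H4K5ac and 46.4% in H4K16ac through 51.8% in H4K8ac and 60.2% in H4K12ac to 71.7% in H4K20ac. For H3K9me2 the H4 lists held 0.00579% to 0.0425% of their bases, and the H3 mean of 1.71% ± 4.61 rested on H3K4ac at 13.1% (exact p = 0.137). The difference of -1.69 percentage points was -0.0616 without H3K4ac. The adjusted p over the 7 tests was 0.479 for H3K9me2 and 0.693 for the other 4 shares. The lists are of different targets, so these p-values measure the spread between targets and not between plants.

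All 5 acetylations lay toward the chromosome ends. In the outer 5% of the chromosome at each end H4K5ac covered 22.3% of the bases, H4K8ac 16.0%, H4K16ac 15.9%, H4K20ac 13.9% and H4K12ac 13.4%, and in the innermost 5% from each side these fell to 2.80%, 2.37%, 2.28%, 1.36% and 1.80%. The Input went from 8.32% to 5.13%. The log2 ratio of the coverage of the outer 10% at each end to that of the middle 60% was 2.54 for H4K20ac, 2.296 for H4K5ac, 2.22 for H4K12ac, 2.14 for H4K16ac and 2.12 for H4K8ac, against 0.62 for the Input. It was lowest on chromosome 2 in all 5 lists (0.20 to 0.46) and highest on chromosome 12 (2.89 to 3.55). H4K20ac had the highest ratio of the 5 on the median chromosome as well, 2.99 against 2.44 to 2.67. The mean ratio was 2.26 ± 0.17 (SD, n = 5 lists) for H4 and 2.21 ± 0.52 (n = 8) for the H3 acetylations. This difference was not past the threshold (exact permutation test, two-sided, p = 0.723, adjusted p = 0.723), and its sign changed without H4K20ac or without H3K4ac.

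**Figure D5:**
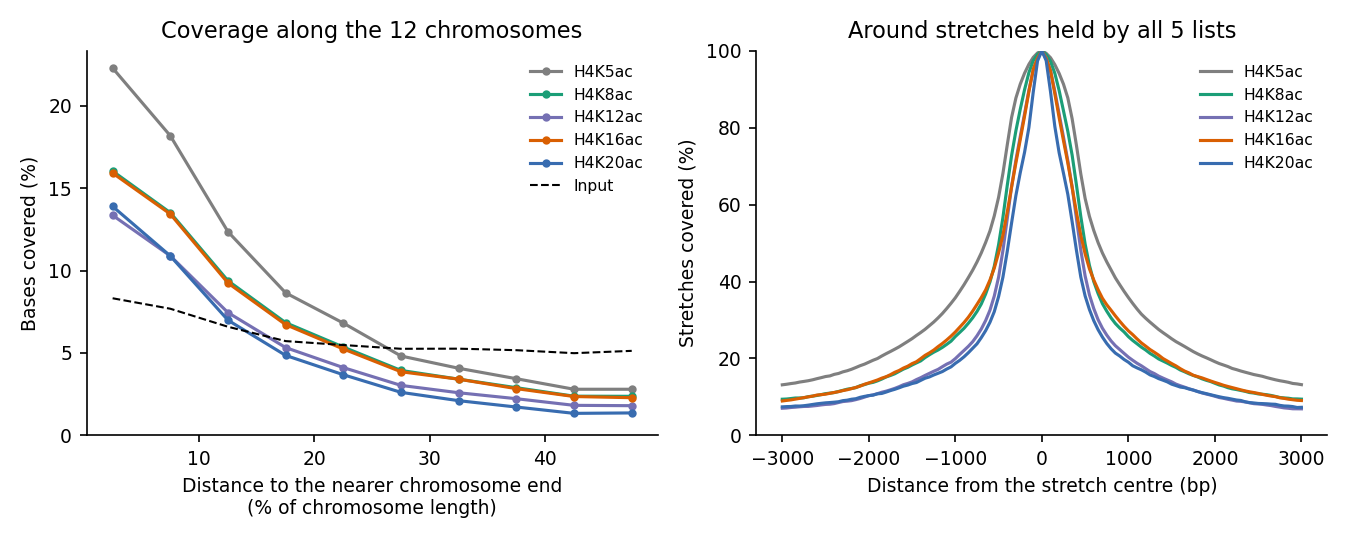
Left, percent of bases covered by each H4 list and by the Input (dashed) against the distance to the nearer chromosome end, in steps of 5% of the chromosome length over 12 chromosomes. Right, percent of the 43460 stretches in all 5 lists that each list covers at a given distance from the stretch centre. H4K5ac, the broad list, is the widest curve and H4K20ac the narrowest.

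Position also set the exclusive peaks of H4K20ac apart. Their log2 ratio of ends to centre was 3.50, against 2.47 for the H4K20ac peaks that touched all of the other 4 lists, and it was the higher of the pair on all 12 chromosomes. For H4K16ac the ratios were 2.17 and 2.21, with the exclusive peaks higher on 6 chromosomes. The ratios were 2.64 and 2.27 for H4K5ac, 2.38 and 2.16 for H4K8ac, and 2.15 and 2.29 for H4K12ac, with the exclusive peaks higher on 9, 11 and 7 chromosomes. The share of the union held by all 5 lists changed little along the chromosome, from 27.2% in the outermost 5% to 23.1% in the innermost, while the share held by 1 list went from 36.02% to 28.4%.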

How the data were processed

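Peak lists of 28 targets from tomato leaf, 1 library each per the labels, were used as deposited. Per the study's methods, the authors trimmed reads with Trimmomatic 0.38, aligned them with Bowtie2 2.3.5 to M82 genome version 1, removed duplicates and poorly placed alignments with SAMtools 1.9, and called peaks with MACS2 2.2.7.1. Removing poorly placed reads lowers coverage of repeats. The methods name 2 biological replicates per condition. The sources used here do not say whether they were pooled in a list, nor whether the Input served as the control. The deposited values per peak were the fold enrichment (a ratio of pileup to local background), the −log10 p-value and −log10 q-value, and a display score, which was not used.

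Bases were counted on the merged peaks of each list with Python 3.11.15 and numpy 2.4.6, the chromosome length being the largest peak end. The pileup was solved from fold and p-value, to a whole number for nearly all peaks of the narrow lists and for 43.6% of the H4K5ac peaks, and served in 1 filter among the alternatives. The H4K5ac list reached a p-value of 0.0985, the narrow lists about 0.05. H4 and H3 acetylation lists (5 against 8) were compared by exact permutation of the 1287 reassignments of the labels, two-sided, with Benjamini-Hochberg adjustment over 7 tests and a threshold of 0.05 (statsmodels 0.14.6). Scripts were tested on simulated data. Filters in the alternatives were set on the 13 acetylation lists only, with the other lists as deposited. Named regions were the highest and the widest peak and exclusive peak of each list, the 3 longest stretches in all 5 lists, those outside Pol2 and H3K9ac or inside H3K9me2, and the longest stretch lacking each list. No genes were named and no sequences shown, as no annotation or genome of this build was used. The members, lists and comparisons were chosen with earlier results of these data known.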

Additional observations from a re-analysis of the deposited data

Results flagged for a closer look

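Among 12 measures over the 5 H4 lists, H4K5ac stood far from the other 4 in the median peak width (1102 bp, the others 439 to 614 bp) and in the percent of peaks with a q-value under 0.05 (51.1%, the others 88.8% to 93.5%). In each case the gap to the nearest list, as a part of the whole range, exceeded the critical value for 5 samples, which chance alone exceeds in about 1 of 20 groups. H4K5ac is the only broad list of the 5.

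Outside the 12 chromosomes, H4K5ac peaks covered 47.9% of the span of the chloroplast sequence, above the 36.01% covered by the Input. Chloroplast DNA carries no histones. The other 4 lists covered 26.1% to 28.8% of it, and the H4K5ac peaks there had a median fold of 1.72. On the mitochondrial and unplaced sequences all 5 lists covered less than the Input.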

How the results depend on the processing

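No paired analysis was possible because each target has replicate 1 alone, so that the groups compared share fewer than 2 replicate numbers. None of the 7 tests between H4 and H3 lists passed or came to pass the threshold under any alternative, and in so small a set of unlike lists this does not speak of stability. The lowest unadjusted p was that of the Pol2 share without H3K9ac, the list with no replicate tag (exact permutation p = 0.0177, adjusted p = 0.124), and no other fell under 0.05. The H3K27me3 difference changed sign, from 1.68 percentage points to -0.71 with q-values under 0.05 and to -4.69 with a solved pileup above 36 and a fold above 1.5. The log2 ratio of ends to centre changed sign without H4K20ac (-0.009) and without H3K4ac (-0.061), in a range of -0.061 to 0.211 over the 13 lists left out in turn, around 0.059 with all. The cause was not tested.

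The share of the union in 1 list and in all 5 lists was 35.98% and 23.004% with the pileup filter, 32.9% and 25.2% with p-values under 0.05, and 26.3% and 32.2% with every peak extended by 150 bp. The share in 1 list was 32.3% with q-values under 0.05. With 1 list left out in turn, the share in 1 list ran from 31.9% (without H4K5ac) to 38.9% (without H4K8ac), around 33.3% with all. The share in all remaining lists ran from 26.2% to 33.1%, where fewer lists have to meet. Exclusive peaks were 9.03% with q-values under 0.05, 10.95% with the pileup filter, 10.9% when up to 50% of the peak could be covered, 5.46% and 1.99% with the other lists extended by 150 bp and 1 kb, and 7.60% to 10.9% without 1 list in turn (highest without H4K5ac), around 6.80% with all peaks.

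The contrast between exclusive H4K16ac and H4K20ac peaks kept its direction in alternatives added after seeing the data. The H3K14ac difference of 43.6 percentage points became 46.1 for exclusive peaks with q-values under 0.05, 40.1 at 200 to 400 bp, 40.1 in terminal and 46.2 in central zones, 50.4 as a share of peaks, 48.2 at over 1 kb from other lists, 50.1 with the pileup filter and 46.9 with q-values under 0.05 in all lists. The H3K4me2 difference of -53.7 became -57.2, -49.2, -49.0 (share of peaks), -62.5 (over 1 kb), -73.1 (pileup filter) and -56.7 (q-values in all lists).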
